A study of Mus musculus with 6 samples.

Results

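The TGF-beta ligands, receptors and SMADs described here are 10 genes, namely *Tgfb1*, *Tgfb2* and *Tgfb3*, *Tgfbr1* and *Tgfbr2*, *Smad2*, *Smad3*, *Smad4* and *Smad7*, and the extracellular matrix gene *Tgfbi*. They were chosen by gene symbol, and all 10 were found among the 14968 protein-coding genes measured in regenerative corneal epithelium. TGF-beta is secreted as a latent dimer that must be released before it binds. The type II receptor then phosphorylates the type I receptor, which in turn phosphorylates SMAD2 and SMAD3, and these enter the nucleus with SMAD4 and regulate transcription, while SMAD7 is induced by the signal and shuts the receptor off. In the cornea the pathway is known for restraining epithelial proliferation, for supporting migration over a wound and for the change of stromal keratocytes into myofibroblasts.

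Expression was measured in 3 diabetic (DM) and 3 control (Ctrl) libraries of polyadenylated RNA. The DM libraries came from C57BL/6 mice 16 weeks after streptozotocin (STZ), which is toxic to pancreatic beta cells and thereby models type 1 diabetes, and the Ctrl libraries from C57BL/6 counterparts. Whether the counterparts received an injection without STZ is not given in the sources used here. According to the methods of the study the mice were males, 6 to 8 weeks old when supplied, both groups had the central corneal epithelium scraped off, and the tissue, limbus with part of the healing centre, was taken the day after. Each library pooled 4 mice, so the spread between replicates is one between pools, and each group stands for 1 such model at 1 time after wounding, with no unwounded cornea beside it. Values are FPKM, in which the fragments assigned to a gene are divided by transcript length and by library size, so that levels of different genes can be set side by side. The read depth behind each value is unknown, so no counting interval is given.

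The 10 genes did not differ between DM and Ctrl beyond the threshold of the test. Of 12149 genes with a mean of at least 0.5 FPKM in 1 or both groups, 8 (0.0658%) passed an adjusted p of 0.05 (limma with Benjamini-Hochberg adjustment over all genes), and 0 of the 10 members were among them. All 10 members passed the filter on low values, and 7 of them had a fitted change below 0, as did 61% of all genes tested. At an unadjusted p under 0.05 there was 1 member, *Tgfb3*, where the share over all genes was 11.5% (4.61% higher and 6.91% lower in DM). With the study's own limits, which join an unadjusted p under 0.05 to a change of 1.5-fold or more, there were 0 members against 2.49% of all genes. The values of the groups did not overlap for 2 members, *Tgfb3* (lower in DM) and *Smad7* (higher in DM), against 17.6% of all genes (6.68% higher and 10.9% lower in DM). The median log2 fold change of the members was -0.05, beside -0.04 over all genes tested. With median-of-ratios scaling these medians were -0.0043 and 0.0013, and without DM replicate 3 they were -0.037 and 0.00026. The FPKM of DM replicate 3 summed to 308757, and those of the other libraries to 329197 to 331926. The part of library scaling in the signs of the changes was not tested. Fold changes here are DM over Ctrl on log2(FPKM + 1), a scale that understates the change of genes near 1 FPKM.

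**Figure D1:**
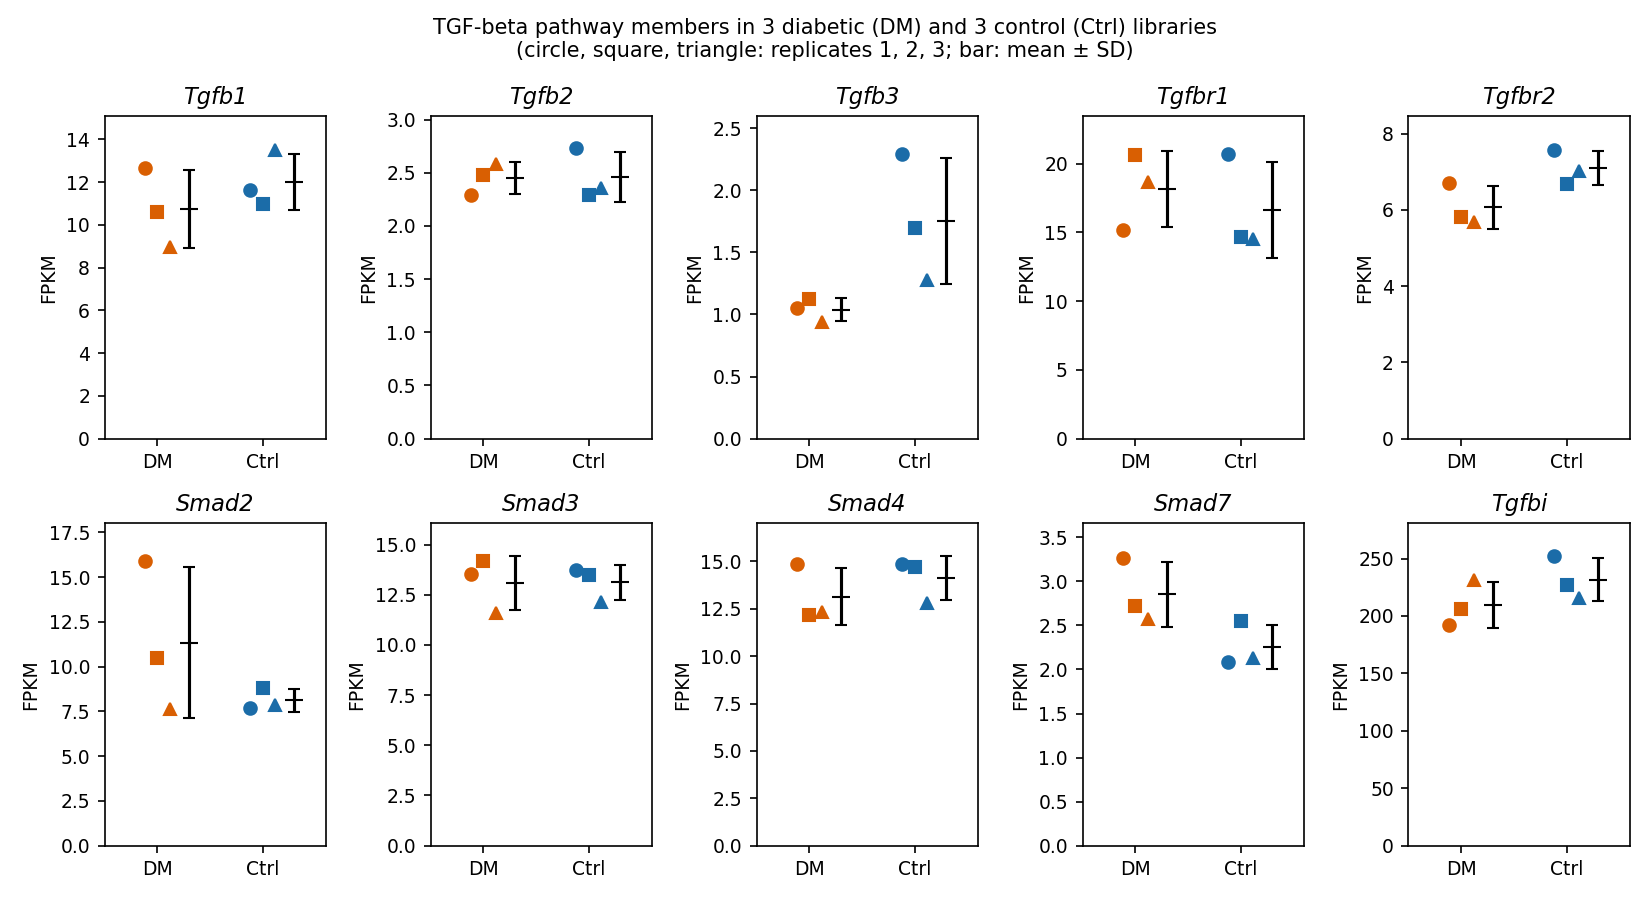
FPKM of the 10 members (1 panel each, vertical axis from 0) in the 3 DM libraries (orange) and the 3 Ctrl libraries (blue), with symbols for replicates 1, 2 and 3 and bars for the mean ± SD. The DM values lie below all Ctrl values for *Tgfb3* and above them for *Smad7*, and the single high point of *Smad2* is DM replicate 1 at 15.9 FPKM.

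The levels of the members spanned a wide range. *Tgfbi* stood far above the rest at a mean of 221 FPKM over the 6 libraries, higher than 98.2% of the genes tested. The receptor gene *Tgfbr1* followed at 17.4 FPKM, then *Smad4* at 13.6, *Smad3* at 13.1, *Tgfb1* at 11.4, *Smad2* at 9.72 and *Tgfbr2* at 6.58 FPKM. *Smad7* (2.55 FPKM), *Tgfb2* (2.46 FPKM) and *Tgfb3* (1.40 FPKM) were lowest. Between neighbours in this order the ranges of the 3 libraries overlapped in both groups for *Smad4* and *Smad3*, for *Smad3* and *Tgfb1*, and for *Smad7* and *Tgfb2*, so these pairs were not separated beyond their spread. The step between *Smad2* and *Tgfbr2*, that between *Tgfbr2* and *Smad7* and that between *Tgfbi* and *Tgfbr1* held without overlap in both groups. The remaining steps overlapped in 1 group, namely in Ctrl for *Tgfbr1* and *Smad4* and for *Tgfb2* and *Tgfb3*, and in DM for *Tgfb1* and *Smad2*.

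Among the ligands, *Tgfb3* was lower in diabetic epithelium in every library, and *Tgfb1* and *Tgfb2* overlapped between the groups. *Tgfb3* (ENSMUSG00000021253.7, chromosome 12, 86056745 to 86079041 on the minus strand of GRCm38, as all positions here), whose product is linked to palate closure and to repair with little scarring in mice, had 1.05, 1.12 and 0.936 FPKM in DM replicates 1, 2 and 3, against 2.29, 1.69 and 1.28 FPKM in Ctrl replicates 1, 2 and 3. The DM libraries lay close together below every Ctrl library, and the Ctrl libraries spread widely, with Ctrl replicate 3 close to the DM values. The means were 1.04 ± 0.0940 FPKM in DM and 1.76 ± 0.509 FPKM in Ctrl (SD, n = 3), with a log2 fold change of -0.42 (SE 0.14, limma unadjusted p = 0.0202, adjusted p = 0.344). At a pseudocount of 0.1 in place of 1 the log2 fold change was -0.67, which with its unadjusted p took *Tgfb3* past the thresholds of the study. Leaving out 1 library at a time moved it between -0.55 and -0.28. The span of *Tgfb3* overlaps *Ttll5* on the other strand without a shared exonic base, and 2 non-coding genes of the other strand, *Gm37804* and *Gm48008*, share 163 and 257 of its 3383 exonic bases. Whether the authors quantified by strand is not given in the sources used here, so reads in the shared bases cannot be assigned to 1 gene or the other.

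*Tgfb1* (ENSMUSG00000002603.15, chromosome 7, 25687002 to 25705077), the most widely expressed of the 3 isoforms and abundant in platelets and macrophages, had 12.7, 10.6 and 8.98 FPKM in the DM replicates, against 11.6, 10.95 and 13.5 FPKM in the Ctrl replicates. The groups overlapped, and the highest DM library exceeded 2 of the 3 Ctrl libraries. The *Tgfb1* log2 fold change was -0.16 (95% interval -0.49 to 0.17, limma adjusted p = 0.705). *Tgfb2* (ENSMUSG00000039239.14, chromosome 1, 186622792 to 186705989), the isoform needed for formation of the eye in mice, had 2.29, 2.48 and 2.58 FPKM in the DM replicates, against 2.73, 2.29 and 2.36 FPKM in the Ctrl replicates. Its groups covered nearly the same range. The *Tgfb2* log2 fold change was -0.00317 (limma adjusted p = 0.994), and the 95% interval of its fold change ran from 0.85 to 1.17.

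Set side by side, *Tgfb1* made up most of the ligand transcripts in each of the 6 libraries. Its share of the summed FPKM of the 3 ligands was 79.1, 74.6 and 71.9% in the DM replicates, against 69.8, 73.3 and 78.7% in the Ctrl replicates. The *Tgfb2* share was 14.3, 17.5 and 20.6% in the DM replicates, against 16.4, 15.3 and 13.8% in the Ctrl replicates. The mean *Tgfb2* share differed by 2.30 percentage points (17.5 ± 3.16% in DM and 15.2 ± 1.31% in Ctrl, SD, n = 3), within the spread of the libraries (two-sided exact permutation test, p = 0.3). The difference was 0.729 points without DM replicate 3 and 3.89 points without DM replicate 1. With 3 against 3 libraries this test cannot give a p below 0.1. The *Tgfb3* share was 6.59, 7.91 and 7.49% in the DM replicates, against 13.8, 11.3 and 7.49% in the Ctrl replicates, so that Ctrl replicate 3 lay inside the DM range. The ligands together summed to 16.0, 14.2 and 12.5 FPKM in the DM replicates, against 16.7, 14.9 and 17.1 FPKM in the Ctrl replicates.

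The receptors differed by little. *Tgfbr2* (ENSMUSG00000032440.13, chromosome 9, 116084293 to 116175360 on the minus strand), the ligand-binding type II receptor, had 6.71, 5.80 and 5.68 FPKM in the DM replicates, against 7.58, 6.69 and 7.01 FPKM in the Ctrl replicates. Only DM replicate 1 reached into the Ctrl range, and by a small margin over Ctrl replicate 2. The *Tgfbr2* log2 fold change was -0.20 (SE 0.10, 95% interval -0.44 to 0.05, limma adjusted p = 0.517), and it stayed between -0.26 and -0.15 when 1 library was left out. *Tgfbr1* (ENSMUSG00000007613.15, chromosome 4, 47353222 to 47414931), the type I receptor kinase that phosphorylates the SMADs, had 15.2, 20.7 and 18.6 FPKM in the DM replicates, against 20.7, 14.7 and 14.5 FPKM in the Ctrl replicates. Here 1 library of each group stood on the side of the other group, and the *Tgfbr1* log2 fold change of 0.13 had a 95% interval of -0.26 to 0.52 (limma adjusted p = 0.806). Since both receptors act in 1 complex, their ratio within a library was also compared. The log2 ratio of *Tgfbr2* to *Tgfbr1* was -1.18, -1.83 and -1.72 in the DM replicates, against -1.45, -1.14 and -1.05 in the Ctrl replicates, and the groups overlapped (difference -0.36, two-sided exact permutation test, p = 0.2). That difference was -0.56 without DM replicate 1 and -0.24 without DM replicate 2.

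**Figure D2:**
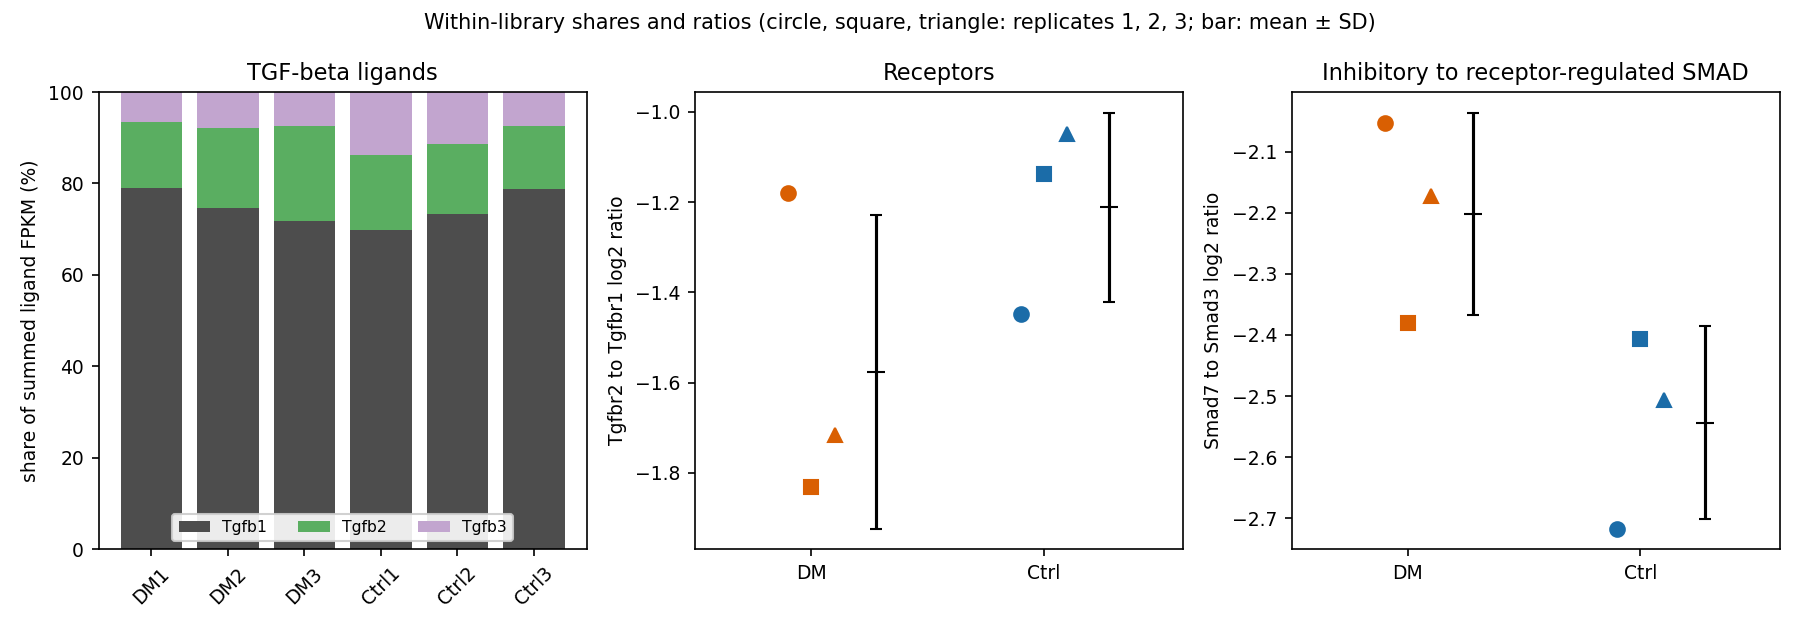
Left, share of each ligand in the summed ligand FPKM (%, 1 bar per library, DM libraries first); middle and right, log2 ratios of *Tgfbr2* to *Tgfbr1* and of *Smad7* to *Smad3* per library (DM orange, Ctrl blue; bars, mean ± SD, n = 3). The share of *Tgfb1* is the largest in each library, the receptor ratios overlap between the groups, and the 3 DM ratios of *Smad7* to *Smad3* (-2.38 to -2.05) lie above the 3 Ctrl ratios (-2.72 to -2.41).

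Among the SMADs, the inhibitory *Smad7* was higher in each DM library, and the signal-carrying *Smad3* and *Smad4* did not separate the groups. *Smad7* (ENSMUSG00000025880.11, chromosome 18, 75367529 to 75395935), the feedback inhibitor that recruits ubiquitin ligases to the receptor, had 3.26, 2.72 and 2.57 FPKM in the DM replicates, against 2.09, 2.55 and 2.14 FPKM in the Ctrl replicates. The groups did not overlap, although DM replicate 3 and Ctrl replicate 2 were nearly equal. The means were 2.85 ± 0.364 FPKM in DM and 2.26 ± 0.252 FPKM in Ctrl (SD, n = 3), with a log2 fold change of 0.24 (SE 0.11, limma unadjusted p = 0.0676, adjusted p = 0.474). It was 0.17 at the lowest and 0.30 at the highest when 1 library was left out. The log2 ratio of *Smad7* to *Smad3*, which does not depend on the scaling of a library, was -2.05, -2.38 and -2.17 in the DM replicates, against -2.72, -2.41 and -2.51 in the Ctrl replicates. These ratios did not overlap either, and differed by 0.34 between the means (two-sided exact permutation test, p = 0.1, the smallest it can give). The mean of *Smad3* was 13.1 FPKM in both groups, so the ratio largely restates the *Smad7* values and is not separate support. A ratio of *Smad7* to *Smad2*, whose DM values varied widely, was not tested. Over the 3 shares and ratios tested, each adjusted p was 0.3.

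*Smad2* (ENSMUSG00000024563.15, chromosome 18, 76241580 to 76305731), which with *Smad3* carries the signal from the type I receptor, had 15.9, 10.5 and 7.61 FPKM in the DM replicates, against 7.67, 8.83 and 7.84 FPKM in the Ctrl replicates. DM replicate 1 stood above all others, and DM replicate 3 was the lowest of the 6 libraries. The DM replicates therefore varied more than for any other member, with a coefficient of variation of 37.3% in DM and 7.78% in Ctrl. The *Smad2* log2 fold change was 0.38 (SE 0.23, limma adjusted p = 0.558), but 0.13 without DM replicate 1 and 0.62 without DM replicate 3, where its unadjusted p was 0.0127 and its adjusted p 0.473. DM replicate 1 was also the library with the highest summed level of 7 neutrophil markers, 1008 FPKM against 625 and 652 FPKM in the other DM libraries and 338 to 655 FPKM in the Ctrl libraries, and the part of this in the *Smad2* value was not tested.

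*Smad3* (ENSMUSG00000032402.12, chromosome 9, 63646767 to 63757994 on the minus strand) had 13.5, 14.2 and 11.6 FPKM in the DM replicates, against 13.7, 13.5 and 12.1 FPKM in the Ctrl replicates. The means were 13.1 FPKM in both groups, and the 95% interval of the fold change ran from 0.833 to 1.19. *Smad4* (ENSMUSG00000024515.13, chromosome 18, 73639009 to 73703780 on the minus strand), the common partner of the activated SMADs, had 14.9, 12.2 and 12.3 FPKM in the DM replicates, against 14.9, 14.7 and 12.8 FPKM in the Ctrl replicates. Its groups overlapped, with a log2 fold change of -0.10 (limma adjusted p = 0.778) and an interval of the fold change from 0.773 to 1.13. *Smad2* was the less abundant of the 2 receptor-regulated SMADs in all libraries except DM replicate 1, where the ratio of *Smad2* to *Smad3* was 1.18, against 0.739 and 0.656 in DM replicates 2 and 3 and 0.558 to 0.654 in Ctrl.

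*Tgfbi* (ENSMUSG00000035493.10, chromosome 13, 56609523 to 56639562) encodes a matrix protein first found as induced by TGF-beta, which is abundant in the cornea and whose human variants cause corneal dystrophies. It had 192, 206 and 231 FPKM in the DM replicates, against 252, 227 and 216 FPKM in the Ctrl replicates. The 2 lowest libraries were DM and the highest was Ctrl, but DM replicate 3 exceeded 2 of the 3 Ctrl libraries. The means were 209.8 ± 19.9 FPKM in DM and 232 ± 18.6 FPKM in Ctrl (SD, n = 3), and the log2 fold change of -0.14 had a 95% interval of -0.38 to 0.09 (limma adjusted p = 0.619). On the fold scale that interval ran from 0.770 to 1.07.

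**Figure D3:**
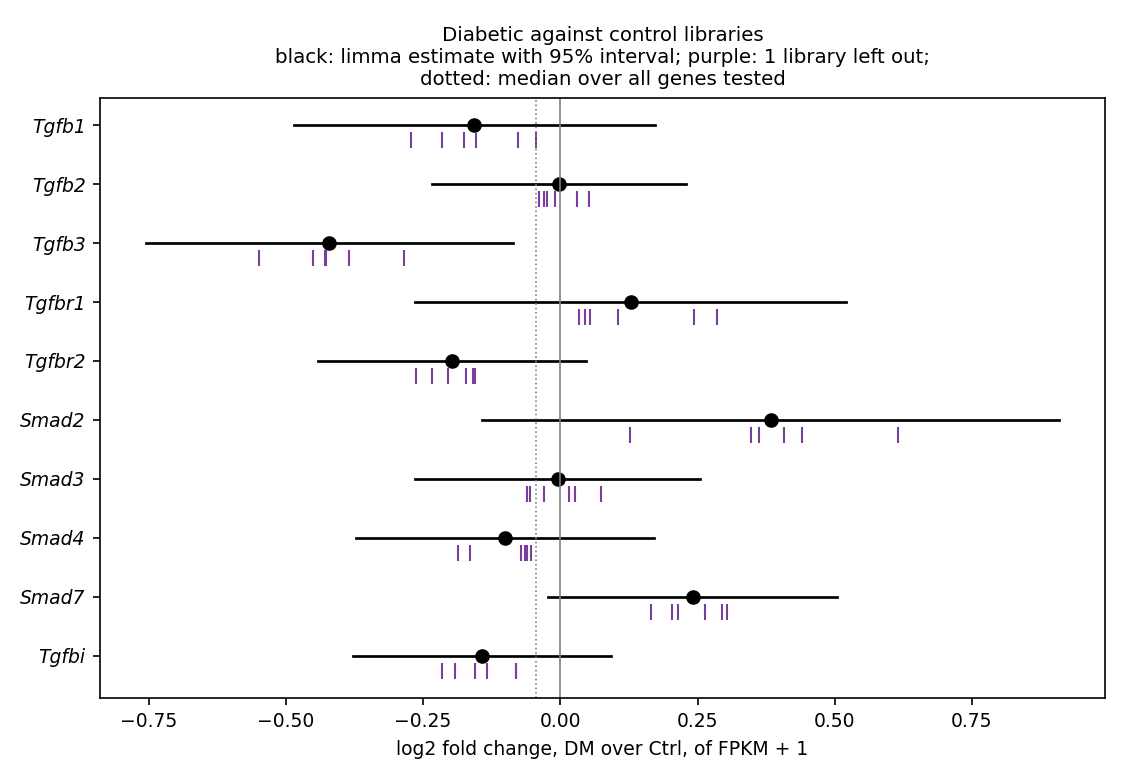
Log2 fold change (DM over Ctrl, of FPKM + 1) of each member with its 95% interval from limma (black), the 6 values with 1 library left out (purple) and the median of all genes tested (dotted, -0.04). The interval of *Tgfb3* alone lies wholly on 1 side of 0, and the values of *Smad2* spread from 0.13 to 0.62 as libraries are left out.

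Promoter windows were looked up because SMAD3 and SMAD4 bind a short DNA element, the SMAD box CAGAC, searched on both strands and therefore also as GTCTG. RefSeq windows on GRCm38.p6 ran from 250 bases before to 50 bases after a gene's start. They are given for 6 of the 10 members, in 7 windows. *Tgfb3*, *Smad2*, *Smad4* and *Smad7* have no window here, which does not show that they lack one in RefSeq or lack a SMAD box. *Smad2*, *Smad4* and *Smad7* lie on the same chromosome, and member windows on that chromosome were left out. *Tgfbi* and *Tgfb2* had 2 matches each, *Tgfbr2* had 1, *Tgfbr1* had 0 at its first and 1 at its second start, and *Tgfb1* and *Smad3* had 0. Of all 32851 windows of this length 49.6% held at least 1 match and 16.2% at least 2, so a match is common and is a description of letters, not of binding. The windows of *Tgfbi*, the member with the highest level, at chr13:56609336-56609635 (plus strand), and of *Tgfbr2*, the receptor with the smaller p, at chr9:116175314-116175613 (minus strand), are shown 5′ to 3′ with the SMAD box letters in capitals.
Tgfbi: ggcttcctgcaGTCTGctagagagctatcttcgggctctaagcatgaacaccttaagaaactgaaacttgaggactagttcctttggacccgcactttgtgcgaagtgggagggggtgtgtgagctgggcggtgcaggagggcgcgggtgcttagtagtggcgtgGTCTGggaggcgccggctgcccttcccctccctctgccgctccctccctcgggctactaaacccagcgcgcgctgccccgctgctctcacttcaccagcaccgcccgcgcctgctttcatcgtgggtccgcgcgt
Tgfbr2: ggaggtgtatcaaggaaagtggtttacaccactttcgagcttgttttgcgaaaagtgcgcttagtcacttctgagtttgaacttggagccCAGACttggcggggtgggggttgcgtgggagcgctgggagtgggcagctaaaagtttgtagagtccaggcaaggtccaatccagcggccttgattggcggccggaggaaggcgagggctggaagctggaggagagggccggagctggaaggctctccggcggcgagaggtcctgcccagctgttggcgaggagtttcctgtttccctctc

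Other genes of the pathway were read from 6 further lists, of latency and activation, receptor regulators, SMAD feedback, the activin and BMP branch, the TAK1 branch and target genes. Of their 77 genes, 75 were in the table and 69 passed the filter, the others being *Ltbp2*, *Itgb8*, *Acvr2b*, *Bmpr1b*, *Smad9* and *Zeb2*. None of the 69 passed an adjusted p of 0.05 in limma, and 8 (11.6%, beside 11.5% of all genes) had an unadjusted p under 0.05. Of these 8, 2, *Ctgf* and *Col1a1*, also reached the thresholds of the study, as did 2.49% of all genes. Another of the 8, *Bmp6*, passed the filter only through DM, where it was high. The groups did not overlap for 5 of the 69 that were higher and 6 that were lower in DM, beside 6.68% and 10.9% of all genes. The genes below that are named for a small p were picked by that p. A lack of overlap in them is therefore not separate support. The median log2 fold change of the 69 was -0.02.

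Of the 10 latency and activation genes tested, 1 (10%, beside 11.5% of all genes) had an unadjusted p under 0.05. *Itgb6*, the beta chain of the epithelial integrin that releases active TGF-beta, had 4.69, 4.75 and 3.20 FPKM in the DM replicates, against 5.33, 5.59 and 8.13 FPKM in the Ctrl replicates. All DM values were below the Ctrl values, with a log2 fold change of -0.49 (SE 0.18, limma adjusted p = 0.380), or -0.32 without Ctrl replicate 3. *Thbs1*, another activator and the highest of this list at a mean of 31.1 FPKM, had a log2 fold change of 0.05. *Itgb8*, the beta chain of another integrin that activates TGF-beta, was below the filter, at 0.338 to 0.430 FPKM in DM and 0.319 to 0.605 FPKM in Ctrl.

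Of 7 receptor regulators, 1 (14.3%, beside 11.5% of all genes) had an unadjusted p under 0.05. *Bambi*, a decoy receptor that lacks the kinase domain, had 5.47, 4.96 and 4.25 FPKM in the DM replicates, against 3.77, 4.05 and 3.85 FPKM in the Ctrl replicates. The groups did not overlap, and the log2 fold change was 0.26 (SE 0.11, limma adjusted p = 0.422). The co-receptor gene *Tgfbr3* was highest at 16.6 FPKM and had a log2 fold change of 0.02. Of the 11 SMAD feedback and co-repressor genes, 0 had an unadjusted p under 0.05 in limma, 7 were above and 4 below 0, and the most abundant, *Pmepa1* (13.0 FPKM), had a log2 fold change of -0.05. Of the 5 genes of the TAK1 branch, which carries TGF-beta signals without SMADs, 0 had an unadjusted p under 0.05 in limma, and *Tab2*, the highest at 12.7 FPKM, had a log2 fold change of 0.11.

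The activin and BMP branch, which uses related ligands and receptors, held 3 genes with an unadjusted p under 0.05 among 17 tested (17.6%, beside 11.5% of all genes). *Fst*, which encodes the activin-binding follistatin, had 8.02, 8.11 and 10.3 FPKM in the DM replicates, against 5.85, 6.91 and 4.27 FPKM in the Ctrl replicates, without overlap (log2 fold change 0.57, limma adjusted p = 0.3001). *Bmp7*, a BMP ligand, had 2.30, 1.58 and 1.29 FPKM in the DM replicates, against 2.68, 2.59 and 2.51 FPKM in the Ctrl replicates, also without overlap (log2 fold change -0.42, adjusted p = 0.344). *Bmp6*, near the lower limit of the filter, had 0.519, 1.28 and 1.03 FPKM in the DM replicates, against 0.464, 0.472 and 0.357 FPKM in the Ctrl replicates, without overlap (log2 fold change 0.42, or 0.91 at a pseudocount of 0.1, limma adjusted p = 0.372). Its mean was 0.945 FPKM in DM and 0.431 FPKM in Ctrl, so it passed the filter of 0.5 FPKM only through DM. The direction and the lack of overlap of *Bmp6* were thus tied to its being tested. The median of the branch was -0.05. The most abundant gene was the receptor gene *Bmpr1a* at 19.5 FPKM, with a log2 fold change of -0.19.

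Target genes went both ways, with 8 of 19 above and 11 below 0 and a median of -0.09. *Ctgf*, which encodes a matricellular growth factor and was singled out by the study from these libraries, had 23.4, 32.3 and 42.4 FPKM in the DM replicates, against 10.003, 7.41 and 13.6 FPKM in the Ctrl replicates (log2 fold change 1.57, limma adjusted p = 0.0930). Its adjusted p was 0.0417 without DM replicate 1 and 0.284 without Ctrl replicate 1. *Id2*, an inhibitor of helix-loop-helix factors, had 56.9, 80.7 and 75.4 FPKM in the DM replicates, against 50.02, 48.6 and 45.7 FPKM in the Ctrl replicates (log2 fold change 0.54, limma adjusted p = 0.249, or 0.0479 without DM replicate 1). *Col1a1*, a collagen chain of the stroma, had 40.1, 44.6 and 21.8 FPKM in the DM replicates, against 66.1, 57.4 and 61.7 FPKM in the Ctrl replicates (log2 fold change -0.84, adjusted p = 0.289). These 3 were without overlap between the groups. The log2 fold change of *Col1a1* was -0.53 without DM replicate 3, its lowest library, and *Col1a1* is also a marker of the stromal list that follows. *Junb*, the most abundant gene of this list, which does not hold *Tgfbi*, at 98.5 FPKM, had a log2 fold change of 0.06.

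**Figure D4:**
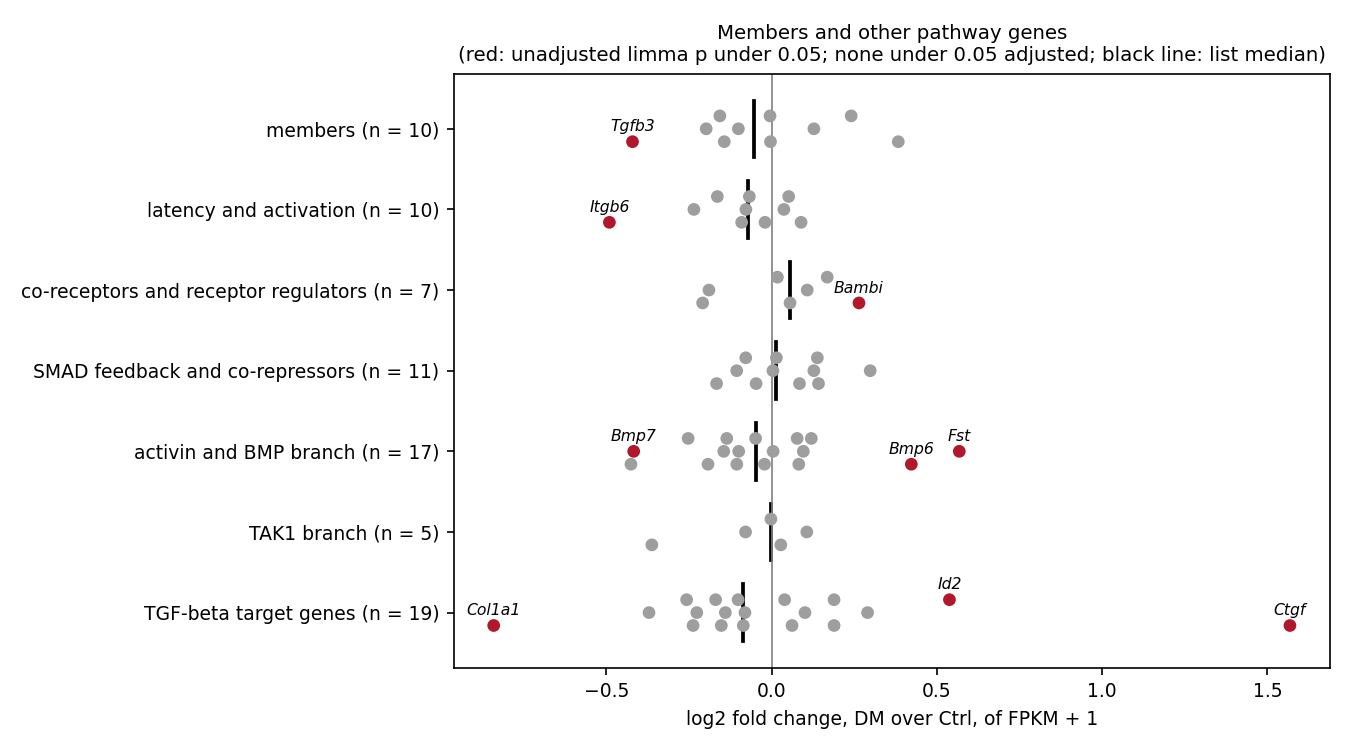
Log2 fold change (DM over Ctrl, of FPKM + 1) of each member and of the genes of the 6 other lists (1 row per list, with the number tested; red, unadjusted limma p under 0.05; black line, median). The medians lie between -0.09 and 0.06, and *Ctgf* at 1.57 and *Col1a1* at -0.84 stand apart from the other genes.

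Marker lists were read for the cell types that a scraped cornea may contain. The corneal epithelial list, with the keratin *Krt12* and the regulator *Pax6*, was detected in full and summed to 14475 to 16967 FPKM in DM and 14714 to 15528 FPKM in Ctrl. Within this sum the genes went both ways. *Krt12* had 3746.3 to 5743 FPKM in DM and 3063.6 to 3745.6 FPKM in Ctrl. *Krt14*, another keratin, had 3871 to 4115 FPKM in DM and 4416 to 5245 FPKM in Ctrl. Before adjustment, limma gave a p below 0.05 to 2 genes that rose in DM and to 1 that fell, out of 8, beside 4.61% and 6.91% of all genes. The stromal list (8 of 8 in the table, *Kera* and *Lum* among them) summed to 248 to 373 FPKM in DM and 386 to 417 FPKM in Ctrl, so it was lower without overlap. Of its 8 members, 3 were lower at an unadjusted p under 0.05, beside 6.91% of all genes, and 2, *Pdgfra* and *Pdgfrb*, had fitted changes above 0 that did not reach that p. Another, *Col3a1*, was below 0.5 FPKM in each DM library and passed the filter only through Ctrl. Monocyte and macrophage genes (8 of 8) summed to 91.4 to 126 FPKM in DM and 85.4 to 103 FPKM in Ctrl. Of these, 2 were higher and 2 lower at an unadjusted p under 0.05, beside 4.61% and 6.91% of all genes. *Lyz2* had 42.4 to 65.6 FPKM in DM and 28.4 to 45.8 FPKM in Ctrl, and *C1qa* 3.90 to 7.75 FPKM in DM and 8.33 to 9.39 FPKM in Ctrl. All 7 neutrophil genes tested had fitted changes above 0, 2 of them at an unadjusted p under 0.05, beside 4.61% of all genes. Endothelial genes (5 of 5, 4 of them below 1 FPKM in every library) summed to 2.11 to 3.37 FPKM in DM and 2.15 to 3.35 FPKM in Ctrl. Platelet genes (4 of 4) summed to 339 to 380 FPKM in DM and 137 to 302 FPKM in Ctrl. Nearly all of this was *Ppbp*, whereas *Pf4*, a platelet factor, was at 2.12 to 2.56 FPKM in DM and 2.26 to 3.53 FPKM in Ctrl. Erythrocyte genes (5 of 5) summed to 9.90 to 22.2 FPKM in DM and 40.9 to 107 FPKM in Ctrl. Of these, 4 were lower at an unadjusted p under 0.05, beside 6.91% of all genes, and 1, *Alas2*, had a fitted change above 0. Lens genes (6 of 6, of which *Cryba1*, *Crygs*, *Mip* and *Lim2* were at 0 in some libraries) summed to 7.16 to 231 FPKM in DM and 0.118 to 9.45 FPKM in Ctrl. By library this sum was 53.8, 231 and 7.16 FPKM in DM replicates 1, 2 and 3, so DM replicate 3 lay inside the Ctrl range. All 6 lens genes had fitted changes above 0, 3 of them at an unadjusted p under 0.05, beside 4.61% of all genes. *Mip* and *Lim2*, at most 0.048 FPKM in Ctrl, passed the filter only through DM, so their direction was tied to the filter. Of the Langerhans and dendritic cell list 2 of 4 were in the table and summed to 21.05 to 22.0 FPKM in DM and 24.6 to 47.3 FPKM in Ctrl, without overlap. Nearly all of that was *Cd74*, the 1 gene of the list that was tested, which was lower in DM with a limma unadjusted p below 0.05. Of the T and NK cell list 1 of 6 was in the table, *Nkg7*, at 0.579 to 1.35 FPKM in DM and 0.179 to 0.759 FPKM in Ctrl, higher in DM with a limma unadjusted p below 0.05 although the groups overlapped. The Ctrl mean of *Nkg7* was below 0.5 FPKM, so it too passed the filter only through DM. The part of these cells in the values of the members was not tested, and in bulk tissue fewer cells of a type and less RNA per cell cannot be told apart.

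Finally, the genes whose pattern over the 6 libraries was most like that of the most abundant member and of the member with the smallest p were named, by Pearson's r of log2(FPKM + 1) over 10773 genes with a mean of at least 1 FPKM. For *Tgfbi* these were *Gpr4*, a proton-sensing receptor (r = 0.989), *Dhrs7*, a short-chain dehydrogenase (r = 0.988), and *Plxdc2*, a transmembrane protein with a plexin-like domain (r = 0.968), and 48 genes exceeded an r of 0.9. For *Tgfb3* they were *Actr1a*, a dynactin subunit (r = 0.999), the phosphatase gene *Ptpn4* (r = 0.997) and *Phyhip* (r = 0.996), and 368 genes exceeded an r of 0.9. *Actr1a* had 84.6, 85.4 and 82.2 FPKM in the DM replicates, against 100.2, 93.0 and 87.7 FPKM in the Ctrl replicates, the same order of libraries as *Tgfb3*. The points share their libraries and the genes were the closest of many, so these values describe the 6 libraries only.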

How the data were processed

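The sample titles gave each library its group and number. Libraries were prepared with the KAPA stranded kit and sequenced on an Illumina NovaSeq. The submitters' processing notes name FastQC, cutadapt, HISAT2 and StringTie and the build GRCm38, without a role for each tool, and their versions are not given in the sources used here. The values deposited by the authors are FPKM per protein-coding gene. In genes of a single exon, 27.0% to 35.2% of low values came out whole (tolerance 0.05) at the best step per library, so reads were not recovered, no count test was used and the depth is unknown.

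For DM against Ctrl, a two-sided moderated test with a mean-dependent prior variance was run in limma 3.58.1 under R 4.3.3 on log2(FPKM + 1), with Benjamini-Hochberg adjustment over the 12149 genes with a mean of at least 0.5 FPKM in 1 or both groups (2819 were left out). For a repeated symbol (21 cases) the gene with the highest mean kept it. The p-values measure the spread between pools. Intervals are 95% intervals from the moderated fit. Shares and ratios within a library were compared by exact permutation of the 6 libraries. The steps were tested on simulated data. Alternatives were other pseudocounts, filters, scalings, limma settings and weights, a replicate block, and leaving out each library.

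The members and lists were chosen with earlier results of these data known. Named were all members, up to 4 genes of each other list with the smallest unadjusted p under 0.05, the most abundant gene of each list, and the 3 genes closest in pattern to each of 2 members. *Itgb8*, *Ttll5* and the markers named were chosen after their values were seen. Positions are those of the file, and 9 of the 10 members had the same start and end in GENCODE M21. Overlaps came from that annotation and promoter windows from RefSeq (GRCm38.p6).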

Additional observations from a re-analysis of the deposited data

How the results depend on the processing

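Over the 17 alternative settings of the fit, 0 members passed an adjusted p of 0.05 in limma, and their smallest adjusted p lay between 0.146 (library weights) and 0.665 (without Ctrl replicate 1). Of the 10 members, 8 kept their sign in all 17, and *Tgfb2* and *Smad3*, both near 0, did not. The *Tgfb2* log2 fold change was 0.031 as TPM, 0.024 with quantile normalization, 0.039 with median-of-ratios scaling, 0.018 with library weights and -0.038 to 0.052 with 1 library left out. That of *Smad3* was 0.033 as TPM, 0.036 with quantile normalization, 0.048 with median-of-ratios scaling, 0.030 with library weights and -0.060 to 0.075 with 1 library left out. Of the other genes, *Pmepa1* was at 0.0057 with median-of-ratios scaling, *Thbs1* at -0.033 and *Tgfbr3* at -0.027 with library weights, and with 1 library left out the log2 fold changes ran from -0.15 to 0.068 for *Pmepa1*, -0.14 to 0.22 for *Thbs1*, -0.14 to 0.19 for *Tgfbr3* and -0.10 to 0.18 for *Junb*. With library weights *Ctgf* had an adjusted p of 0.0213.

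The members at the thresholds of the study were 1 at a pseudocount of 0.1 (*Tgfb3*) and 0 to 1 with 1 library left out (*Smad2*, without DM replicate 3). Over all genes, the count at an adjusted p under 0.05 was 8, and 1 with no filter, 5 as TPM, 5 with quantile normalization, 3 without the intensity trend, 129 with library weights and 1 to 66 with 1 library left out (66 without DM replicate 1). The count at the thresholds of the study was 302, and 584 at a pseudocount of 0.1, 530 as TPM and 258 to 469 with 1 library left out. The cause of these shifts was not tested. The methods of the study speak of paired samples without naming what pairs them. Deviations of same-numbered libraries correlated at -0.20, 0.06 and -0.09 across genes, so a pairing by replicate number was not seen in these values, and the libraries were not treated as paired. Between differently numbered libraries the correlations ran from -0.23 to 0.29. A pairing in another order was not tested, so the check cannot tell whether the samples were paired in some other way. With a replicate block 3 genes passed the adjusted threshold, 0 of them members. With 3 pools a group, the interval of a member's log2 fold change was 0.46 to 1.1 wide.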
